A study of Saccharomyces cerevisiae with 15 samples.

Results

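The DAN and TIR genes of budding yeast, Saccharomyces cerevisiae, encode mannoproteins of the cell wall that are made when oxygen is scarce. The 6 genes described here are DAN1, DAN4, TIR1, TIR2, TIR3 and TIR4. They were chosen by gene family and by measured values, because signals of several of them had been seen to differ between the mbf1 and the bna4 deletion. Each gene had 1 probe set that matched its symbol alone, which gave 6 of the 9275 probe sets tested and 6 of the 5656 genes that had such a probe set. All 6 members were measured, and no filter on low signal was applied to them.

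RNA was measured on 15 Affymetrix Yeast Genome S98 arrays, in 5 groups of 3. All strains were MATa haploids of the BY4741 background and carried a galactose-induced fragment of human huntingtin, the protein whose glutamine repeat is expanded in Huntington's disease. The first group lacked MBF1, which encodes a transcriptional coactivator and partner of Gcn4, and expressed the Htt103Q fragment. The second lacked BNA4, the kynurenine 3-monooxygenase of the pathway that makes NAD from tryptophan, and the third lacked UME1, which encodes a component of the Rpd3 histone deacetylase complexes. Both of these also expressed Htt103Q. The fourth group expressed Htt103Q with no deletion, and the fifth expressed the short Htt25Q fragment with no deletion. The labels name the 3 deletions as suppressors, and no deletion strain with Htt25Q or without huntingtin was analysed here. The number of clones behind each deletion group is not stated in the labels. All groups grew with shaking at 30 °C in 12 ml of medium lacking uracil and holding 2% galactose, starting at an optical density of 0.2 and ending at about 1. No group was labelled as deprived of oxygen.

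During growth without oxygen, yeast exchanges the mannoproteins of its aerobic wall, such as Cwp1 and Cwp2, for the Dan and Tir proteins, which are serine- and alanine-rich and bound to the wall through a glycolipid anchor. With oxygen, heme supports repressors that act on these genes, among them Rox1, Mot3 and the Tup1-Cyc8 corepressor. When heme and sterols run low, the sterol-responsive activator Upc2 turns the genes on. TIR1, TIR3 and TIR4 are known to be needed for growth without oxygen, and TIR1 and TIR2 are also known as cold shock genes. DAN1 (YJR150C) and DAN4 (YJR151C) are adjacent on chromosome X, and TIR4 (YOR009W) and TIR2 (YOR010C) are adjacent on chromosome XV in the R64 assembly. TIR1 (YER011W) lies on chromosome V and TIR3 (YIL011W) on chromosome IX. The coding genes span 897 bases for DAN1, 3486 for DAN4, 765 for TIR1, 756 for TIR2, 810 for TIR3 and 1464 for TIR4.

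Values are log2 signals, quantile normalized over all 15 arrays, unless they are called deposited. The deposited values fell into 2 sets of arrays by their lowest value, called processing sets here. The sources used here do not name these sets or say why they differ. Array medians were 6.776 to 6.84 in the 6 arrays of the mbf1 and bna4 deletions. They were 6.347 to 6.47 in the 9 arrays of the ume1 deletion, Htt103Q and Htt25Q. Differences across these sets cannot be told apart from whatever separates the sets, in processing or before it. A group was at the floor when its 3 arrays lay within 0.1 of the lowest deposited value, which was 2.02 in the first of these sets and 2.06 in the other. BNA4 averaged 2.12 in the bna4 deletion, MBF1 2.09 in the mbf1 deletion and UME1 2.34 in the ume1 deletion, so each deleted gene was near the floor in its own strain. The 7 probe sets of a-specific genes averaged 7.5 to 12.8 over the groups and the 4 of alpha-specific genes 2.04 to 5.69, as the MATa label says. A pair of arrays stood apart in control probe sets. Htt25Q array 1 had actin signal that was 2.477 stronger near the 3' end of the transcript than near its 5' end, and the remaining 14 arrays had −0.327 to 0.311. The 18S ribosomal RNA controls averaged 10.39 in ume1 array 1, against 5.901 to 8.081 in the other 8 arrays of its set. In the other set they averaged 10.99 to 11.11 in the bna4 deletion and 9.657 to 10.72 in the mbf1 deletion. These controls thus also separated the bna4 from the mbf1 arrays. The labels do not say that replicates came from separate cultures, so each p measures only the spread between these samples, which may be technical.

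The mbf1 deletion was compared with the bna4 deletion within a single processing set. DAN1, TIR1, TIR3, TIR4 and TIR2 were lower in the mbf1 than in the bna4 deletion, and DAN4 was not. The fitted differences were 152-fold for DAN1, 118-fold for TIR1, 10.4-fold for TIR3, 5.99-fold for TIR4 and 1.43-fold for TIR2. DAN1 was next to the floor in the mbf1 deletion, so its fold may be understated. By deposited values the log2 differences were −6.37 for TIR1, −3.08 for TIR3, −2.31 for TIR4 and −0.40 for TIR2. Because this contrast helped to choose the genes, its values are given as a description, with no test. In whole cultures, fewer cells that make a transcript and less of the transcript per cell cannot be told apart.

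DAN1, the gene that names the DAN family and a standard reporter of anaerobic induction, had signals of 2.12, 2.12 and 2.08 in the mbf1 deletion, against 9.61, 9.19 and 9.26 in the bna4 deletion. In both groups with no deletion, and in the ume1 deletion, it was at the floor of 2.04 in all 9 arrays. The bna4 arrays were thus the only ones of the 15 with a DAN1 signal clearly above the floor. The mbf1 arrays all held the same deposited value of 2.14, which is 0.122 above the lowest value and so just outside the floor limit. The mean was 2.11 ± 0.0219 in the mbf1 strain and 9.35 ± 0.227 in the bna4 strain (SD, n = 3 each), a log2 difference of −7.25 ± 0.0827 (SE). The fitted value is 152-fold lower in the mbf1 deletion, with log2 differences of −7.33 to −7.12 over the alternatives. The floor may understate it.

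TIR1, a major wall mannoprotein of anaerobic and cold-shocked cells, had 4.77, 4.83 and 4.90 in the mbf1 deletion, against 11.65, 11.71 and 11.78 in the bna4 deletion. The 2 groups lay far apart, and each was tight within itself. The ume1 deletion had 4.49, 4.17 and 4.21, Htt103Q had 4.15, 3.86 and 4.29, and Htt25Q had 4.93, 4.22 and 4.09, so the array of Htt25Q with the uneven actin signal was the highest of these 9. Means of 4.83 ± 0.0635 and 11.7 ± 0.0663 in the mbf1 and bna4 deletions (SD, n = 3 each) differed by −6.88 ± 0.19 (SE), or 118-fold.

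TIR3, another mannoprotein of the anaerobic wall, had 4.85, 4.93 and 4.65 in the mbf1 deletion, against 8.52, 8.01 and 8.05 in the bna4 deletion. It had 5.26, 5.49 and 4.92 in the ume1 deletion, 5.40, 5.28 and 5.32 in Htt103Q, and 5.58, 5.38 and 5.31 in Htt25Q. All bna4 arrays were above the 12 others, and the mbf1 deletion had the lowest mean of the 5 groups. The mean of 4.81 ± 0.143 in the mbf1 deletion differed from the 8.19 ± 0.283 of the bna4 deletion (SD, n = 3 each) by −3.38 ± 0.161 (SE).

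TIR4, the third of the Tir proteins needed without oxygen, had 4.96, 5.16 and 4.86 in the mbf1 deletion, against 7.68, 7.40 and 7.65 in the bna4 deletion. It had 5.32, 4.90 and 5.25 in the ume1 deletion, 4.89, 4.46 and 4.47 in Htt103Q, and 5.33, 5.86 and 5.62 in Htt25Q. The bna4 arrays were again the highest, and outside them Htt25Q had the highest mean and Htt103Q the lowest. The mbf1 mean of 4.99 ± 0.154 differed from the bna4 mean of 7.58 ± 0.156 (SD, n = 3 each) by −2.58 ± 0.169 (SE).

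TIR2, the neighbour of TIR4 and a cold shock mannoprotein close to TIR1, moved far less. It had 5.18, 5.13 and 5.26 in the mbf1 deletion, against 5.74, 5.82 and 5.56 in the bna4 deletion. These arrays did not overlap, but their means of 5.19 ± 0.0648 and 5.71 ± 0.131 (SD, n = 3 each) differed by only −0.51 ± 0.107 (SE). The other 9 arrays lay between 4.82 and 5.30, all below the lowest bna4 array.

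DAN4, the largest of the genes, showed no such pattern. It had 6.75, 6.53 and 5.98 in the mbf1 deletion, against 5.90, 5.81 and 5.98 in the bna4 deletion. It had 6.39, 6.08 and 5.82 in the ume1 deletion, 6.78, 6.29 and 5.91 in Htt103Q, and 6.13, 6.01 and 6.59 in Htt25Q. The bna4 deletion had the lowest mean, and its arrays overlapped those of every other group but Htt25Q, which were all higher. The difference of 0.52 ± 0.256 (SE) between 6.42 ± 0.398 in mbf1 arrays and 5.9 ± 0.0884 in bna4 arrays (SD, n = 3 each) was smaller than the range of the mbf1 arrays. DAN4 lies next to DAN1 in the genome, and DAN1 had the largest difference of the 6.

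**Figure D1:**
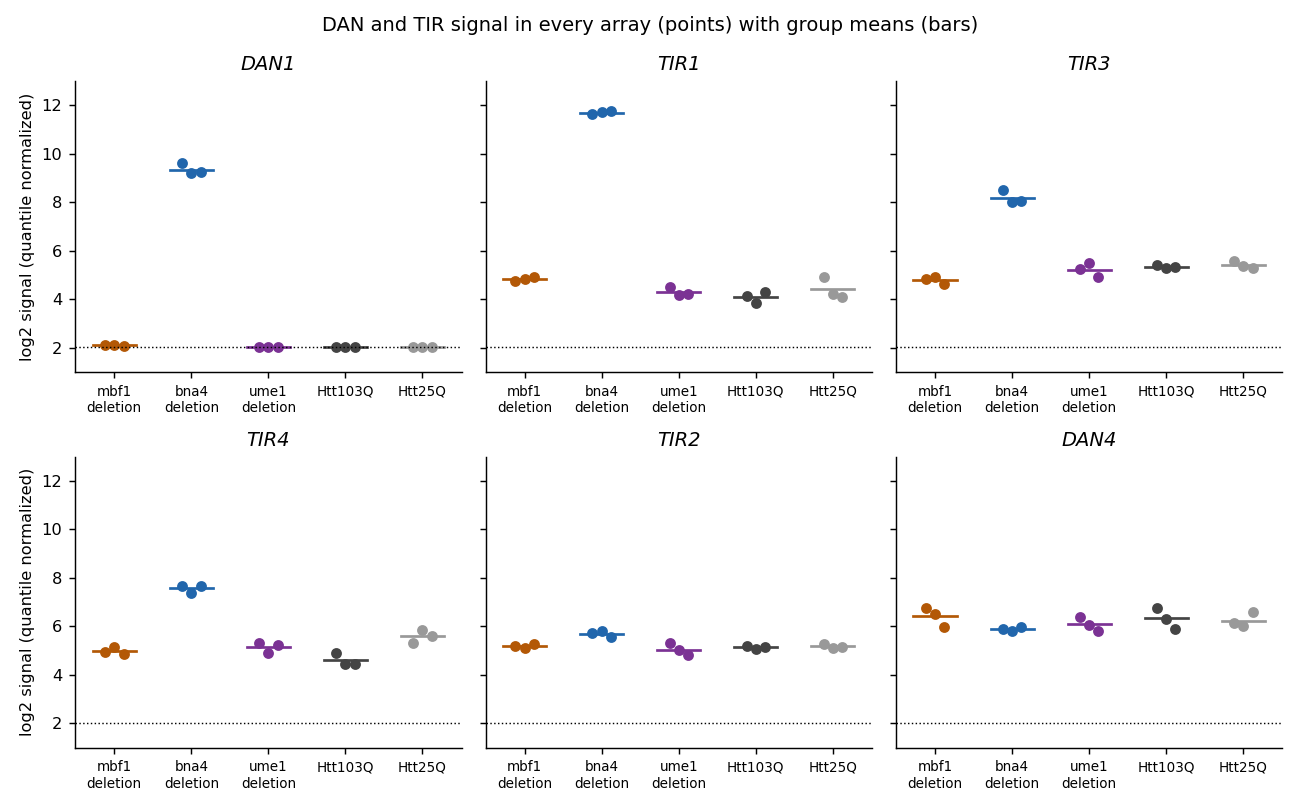
Log2 signal (quantile normalized) of the 6 DAN and TIR genes in every array, with 3 points and a bar for the mean in each of the 5 groups, and a dotted line at the floor of 2.04. The bna4 deletion stands above the 12 other arrays for DAN1, TIR1, TIR3, TIR4 and, by 0.26, TIR2, and does not stand above them for DAN4.

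Over the family, 5 of the 6 genes had every mbf1 array below every bna4 array, as did 19.9% of all probe sets. Since this contrast was used to choose the genes, nothing is read from that count, nor from the median, share and ranks that follow. The median difference was −2.98 over the 6 and −0.00 over all 9275 probe sets. The middle of the distribution was narrow, with the 5th and 95th percentiles of all probe sets at −0.73 and 0.83. Only 55 probe sets, 0.593% of all, differed by at least 2.5 in either direction, and 4 of the 6 genes were among them. Among falls, DAN1 ranked 2, TIR1 3, TIR3 18, TIR4 34 and TIR2 812 of 9275.

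**Figure D2:**
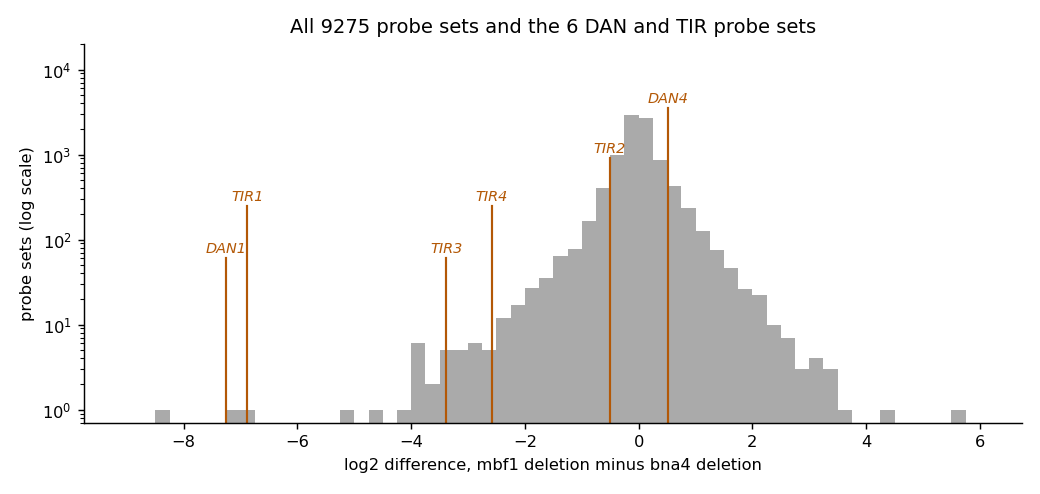
Histogram of the log2 difference, mbf1 deletion minus bna4 deletion, over all 9275 probe sets (grey; vertical axis on a log scale), with the 6 DAN and TIR genes as vertical lines whose heights carry no value. DAN1 (−7.25) and TIR1 (−6.88) lie at the far end of the falls, TIR3 (−3.38) and TIR4 (−2.58) in the lower tail, and TIR2 (−0.51) and DAN4 (0.52) within the bulk.

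The same values can be set against all arrays outside the bna4 deletion. This too is only a description, because it shares the bna4 arrays with the contrast that chose the genes. The lowest bna4 array was above the highest of the 12 others by 7.07 for DAN1, 6.72 for TIR1, 2.42 for TIR3, 1.54 for TIR4 and 0.26 for TIR2. For DAN4 the lowest bna4 array was 0.97 below the highest other array. Of all probe sets, 7.74% had their bna4 arrays above the 12 others, 17 with a gap of over 2 and 5 with a gap of over 3. DAN1 and TIR1 were among the 5. Using deposited values, the gap was over 2 in 17 probe sets too, and it was 7.09 for DAN1, 6.23 for TIR1, 2.82 for TIR3, 1.93 for TIR4 and 0.22 for TIR2.

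The bna4 deletion was set against Htt103Q, its background with no deletion, across the 2 processing sets, so these differences are also given without a test. DAN1, TIR1, TIR4, TIR3 and TIR2 were higher in the bna4 deletion in every array, 5 of the 6 genes, beside 33.1% of all probe sets. DAN1 averaged 9.35 in the bna4 deletion and was at the floor in Htt103Q. Its fitted difference was 7.31 ± 0.0827 (SE), or 159-fold, with log2 differences of 6.94 to 7.39 over the alternatives. The floor may understate it. TIR1 averaged 11.7 ± 0.0663 in the bna4 deletion and 4.1 ± 0.221 in Htt103Q (SD, n = 3 each), 7.61 ± 0.19 (SE) or 196-fold higher. TIR4 was 7.84-fold higher, TIR3 7.26-fold and TIR2 1.48-fold. The first 4 of these genes lay above the 95th percentile of all probe sets, which was 1.70. The difference of TIR2, 0.57, lay within it and was 1.07 by deposited values. DAN4 had −0.43 by normalized and 0.01 by deposited values, so it has no direction here. The median over the 6 genes was 2.92, against 0.00 over all probe sets, and 3.32 against 0.05 by deposited values.

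The mbf1 deletion was set against Htt103Q in the same way, and its differences were smaller. DAN1 averaged 2.11 in the mbf1 deletion and 2.04 in Htt103Q, both at or next to the floor, so no fold is given. TIR1 averaged 4.83 ± 0.0635 in the mbf1 deletion and 4.1 ± 0.221 in Htt103Q (SD, n = 3 each), a difference of 0.73 ± 0.19 (SE), or 1.51 by deposited values. TIR4 differed by 0.39 (deposited 1.11), DAN4 by 0.09 (deposited 0.55) and TIR2 by 0.06 (deposited 0.67), each with overlapping arrays after normalization. TIR3 was below Htt103Q in every mbf1 array, by 0.52, but was 0.14 above it by deposited values. Every mbf1 array was above every Htt103Q array for TIR1 and DAN1, 2 of the 6, beside 28.2% of all probe sets. DAN1 has no measured difference here, and the share also counts probe sets at the floor. The median of the 6 was 0.08, against 0.00 for all probe sets, and 0.61 against 0.11 by deposited values. Among the 1326 probe sets whose mean signal lay between 4 and 6, a range that holds the 4 TIR genes, the median deposited difference was 0.46 between the mbf1 deletion and Htt103Q. These shifts are the size of several of the members' own differences. This comparison, that of the bna4 deletion with Htt103Q and that of the 2 deletions share arrays, so they do not support one another.

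**Figure D3:**
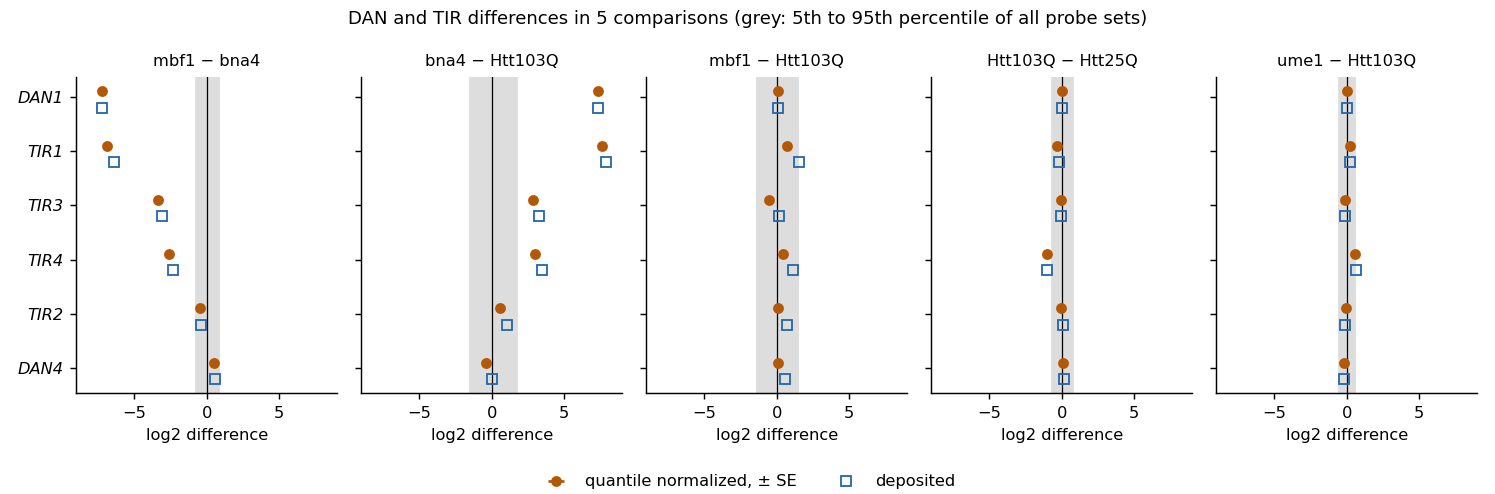
Log2 differences of the 6 DAN and TIR genes (rows) in 5 comparisons (panels), from quantile normalized values with their standard errors, which are mostly smaller than the points (filled circles), and from deposited values (open squares), with the 5th to 95th percentile of all probe sets in grey. By normalized values, DAN1, TIR1, TIR3 and TIR4 lie outside the grey band in the first pair of panels, and TIR4 also lies outside it in Htt103Q against Htt25Q. By deposited values, TIR1 in mbf1 minus Htt103Q (1.51) and TIR4 in ume1 minus Htt103Q (0.65) also lie outside the band, which is drawn from normalized values.

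The effect of the expanded repeat itself was examined by setting Htt103Q against Htt25Q. These groups lie in 1 processing set and are not the contrast that helped to choose the genes, so limma's test over all probe sets is given. The test was still chosen with earlier results of these data known. Its spread was estimated from all groups, including the mbf1 and bna4 deletions of the other processing set. Only TIR4 passed limma's test. TIR4 had 4.89, 4.46 and 4.47 in Htt103Q, against 5.33, 5.86 and 5.62 in Htt25Q, and the 2 groups did not overlap. It fell by 1.00 ± 0.169 (SE) in Htt103Q, which is 1.99-fold lower (limma, adjusted p = 0.00716). That is 1 of the 6 genes lower and 0 higher, beside 2.38% of all probe sets lower and 2.06% higher. The call held in 12 of 14 alternatives, including without Htt25Q array 1 and without both arrays that stood apart, with differences of −1.14 to −0.87. It was lost when only the arrays of the 2 groups compared were fitted (adjusted p = 0.208) and when only the deposited values of the processing set were fitted (adjusted p = 0.14).

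The other members had small differences between Htt103Q and Htt25Q. TIR1 had −0.31 (limma, adjusted p = 0.443), which was −0.05 without Htt25Q array 1. DAN4 had 0.08 (adjusted p = 0.967), TIR3 −0.09 (adjusted p = 0.857) and TIR2 −0.04 (adjusted p = 0.939), and the arrays of each overlapped between the groups. DAN1 was at the floor in both groups and has no difference to give. The median over the 6 was −0.07 and over all probe sets −0.00, with 5th and 95th percentiles of −0.71 and 0.74.

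The ume1 deletion was compared with Htt103Q to ask what loss of Ume1 changes in cells with the expanded repeat. None of the 6 genes passed limma's test, and 1, TIR4, had an unadjusted p under 0.05, as did 1242 of the 9275 probe sets. TIR4 had 5.32, 4.90 and 5.25 in the ume1 deletion, against 4.89, 4.46 and 4.47 in Htt103Q. All ume1 arrays were higher, the lowest of them by a narrow margin, and the difference was 0.55 ± 0.169 (SE; limma, adjusted p = 0.151, with 0.0709 to 0.475 over the alternatives). Of all probe sets, 1% were called lower and 1.6% higher. DAN4 had −0.23 (adjusted p = 0.793), TIR1 0.19 (adjusted p = 0.769), TIR3 −0.11 (adjusted p = 0.877) and TIR2 −0.09 (adjusted p = 0.808), and DAN1 was at the floor in both groups. The median over the 6 was −0.05, against 0.00 over all probe sets, whose 5th and 95th percentiles were −0.56 and 0.58. This comparison shares the Htt103Q arrays with that of Htt103Q and Htt25Q, so the 2 values of TIR4 are not independent.

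By mean signal, the bna4 deletion came first of the 5 groups for each gene but DAN4. Below it most groups overlapped the next in order. For TIR1 the mbf1 deletion (4.83), Htt25Q (4.41), the ume1 deletion (4.29) and Htt103Q (4.1) each overlapped the next, and the same held for TIR2 between 5.19 and 5.04. The mbf1 arrays of TIR1 overlapped Htt25Q only through its array 1 (4.93), the array with the uneven actin signal. They lay above every ume1 and Htt103Q array. For TIR3 the order was Htt25Q (5.42), Htt103Q (5.33), the ume1 deletion (5.22) and the mbf1 deletion (4.81), with neighbours that also overlapped. The mbf1 arrays of TIR3 (up to 4.93) lay below every Htt103Q and Htt25Q array. They met the ume1 deletion only through its array at 4.92. These offsets of the mbf1 deletion cross the 2 processing sets. TIR4 was the exception, since the arrays of Htt25Q (5.6) were all above those of the ume1 deletion (5.16), while the ume1 deletion overlapped the mbf1 deletion (4.99), and the mbf1 deletion overlapped Htt103Q (4.61). The ume1 arrays did not overlap those of Htt103Q. For DAN4 the mbf1 deletion (6.42) came first and the bna4 deletion (5.9) last, with overlap between each group and the next in order.

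Regulators of anaerobic genes were examined in the mbf1 and bna4 deletions, over 14 probe sets of 12 genes. This list and those below were chosen with earlier results of these data known. Their adjusted p values in this contrast are therefore descriptive and lend no support to the differences of the DAN and TIR genes. In the mbf1 deletion 3 probe sets were lower, 0 higher and 11 not called, beside 4.81% of all probe sets called lower and 5.74% higher. UPC2, the activator of the DAN and TIR genes, had 4.23, 4.17 and 3.86 in the mbf1 deletion, against 5.99, 5.48 and 6.07 in the bna4 deletion. It was lower in every mbf1 array, by 1.76 ± 0.228 (SE; limma, adjusted p = 0.000624), and it averaged 3.54 in the ume1 deletion, 3.65 in Htt103Q and 3.91 in Htt25Q. SUT1, a regulator of sterol uptake, averaged 6.16 in mbf1 arrays and 7.57 in bna4 arrays (difference −1.40, adjusted p = 0.00562). IXR1, a DNA-binding regulator of hypoxic genes, averaged 9.28 and 10.2 in the mbf1 and bna4 deletions (difference −0.89, adjusted p = 0.00621).

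The repressors of the family did not pass the test. ROX1, the heme-dependent repressor, had a difference of 0.24 (adjusted p = 0.955) and MOT3, a zinc finger repressor, one of 0.20 (adjusted p = 0.35). The corepressor genes TUP1 and CYC8 had 0.29 and 0.17 (adjusted p = 0.795 and 0.96). HAP1, the heme-responsive activator of aerobic genes, had 0.35, −0.24 and −0.34 in its 3 probe sets, none called. The probe sets at −0.24 and −0.34 are of a type that can detect several genes, so they are uncertain for HAP1. ECM22, the paralogue of UPC2, had 0.23 (adjusted p = 0.812) and SUT2, the paralogue of SUT1, −0.54 (adjusted p = 0.0656). MGA2 and SPT23, activators of the desaturase gene OLE1, had −0.18 and 0.34 (adjusted p = 0.847 and 0.18). Between Htt103Q and Htt25Q the 1 regulator called was SUT2, which was lower in Htt103Q by 1.03 (adjusted p = 0.00568, and up to 0.0761 over the alternatives), and in the ume1 deletion 0 of the 14 probe sets were called against Htt103Q.

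Other genes that yeast induces in low oxygen were examined in the same 2 deletions, with the same limit. Of 7 hypoxic isoforms and heme or lipid enzymes, 4 were lower in the mbf1 than in the bna4 deletion and 0 higher. The shares of all probe sets were 4.81% lower and 5.74% higher. ANB1, which encodes the hypoxic isoform of the translation factor eIF-5A, had 5.09, 5.03 and 5.54 in the mbf1 deletion, against 8.91, 8.16 and 8.24 in the bna4 deletion, with a difference of −3.22 ± 0.285 (SE; limma, adjusted p = 4.5e-05). AAC3, the ADP/ATP carrier of anaerobic mitochondria, was lower by 1.59 (adjusted p = 0.00153) and HEM13, a heme synthesis enzyme that low heme induces, by 1.34 (adjusted p = 0.00119). OLE1, the fatty acid desaturase, was lower by 0.75 (adjusted p = 0.023), a call kept in 6 of 13 alternatives and lost when any 1 array of either deletion but mbf1 array 3 was left out, with an adjusted p of up to 0.0855. CYC7, the hypoxic cytochrome c, had −0.87 (adjusted p = 0.238), and HMG2 and COX5B were not called.

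Among 10 probe sets of 5 genes of sterol uptake and storage, 1 was lower in the mbf1 deletion and 0 higher. Of all probe sets, 4.81% were lower and 5.74% higher, so a count of 1 in 10 is not read as a trait of the list. The 1 called was that of HES1, a member of the oxysterol-binding family. It had 2.28, 2.17 and 2.43 in the mbf1 deletion, against 5.89, 6.28 and 6.45 in the bna4 deletion (difference −3.91 ± 0.224 SE, limma, adjusted p = 1.6e-06). Its mbf1 values were near the floor. The sterol importer PDR11, which lies 2 genes from TIR3, had −0.69 (adjusted p = 0.364), and the importer AUS1, which adjoins TIR2, had differences of −0.52 to 0.89 over its probe sets, none called.

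The seripauperins are a large family of short wall proteins, also made without oxygen and with serine-poor sequences. Of the 24 genes listed, 10 had a probe set with their symbol alone, and all 10 were of the type that can detect several family members, so single genes are uncertain. In the mbf1 deletion 3 were lower than in the bna4 deletion (PAU4 −0.87, adjusted p = 0.00534; PAU13 −0.78, adjusted p = 0.0383; PAU3 −0.68, adjusted p = 0.0151), 0 were higher and 7 were not called, with a median of −0.36. Beside these counts, 4.81% of all probe sets were called lower and 5.74% higher. The call of PAU13 was lost without any 1 array of either deletion (adjusted p up to 0.119) and that of PAU3 without bna4 array 2 or 3 or with the deposited values of the processing set alone (adjusted p up to 0.0628), while PAU4 kept it in all 13 alternatives. Of the 8 mannoproteins of the aerobic wall, 0 were called by limma in either direction. TIP1 had −0.64 (adjusted p = 0.0715), with every mbf1 array below every bna4 array, as in 19.9% of all probe sets. SPI1 (−0.49) also had every mbf1 array below every bna4 array. CWP2 (0.23) and SED1 (0.22) had every mbf1 array above every bna4 array. The arrays of FLO11 (0.50), CWP1 (0.48), CCW12 (0.04) and CCW14 (0.02) overlapped.

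**Figure D4:**
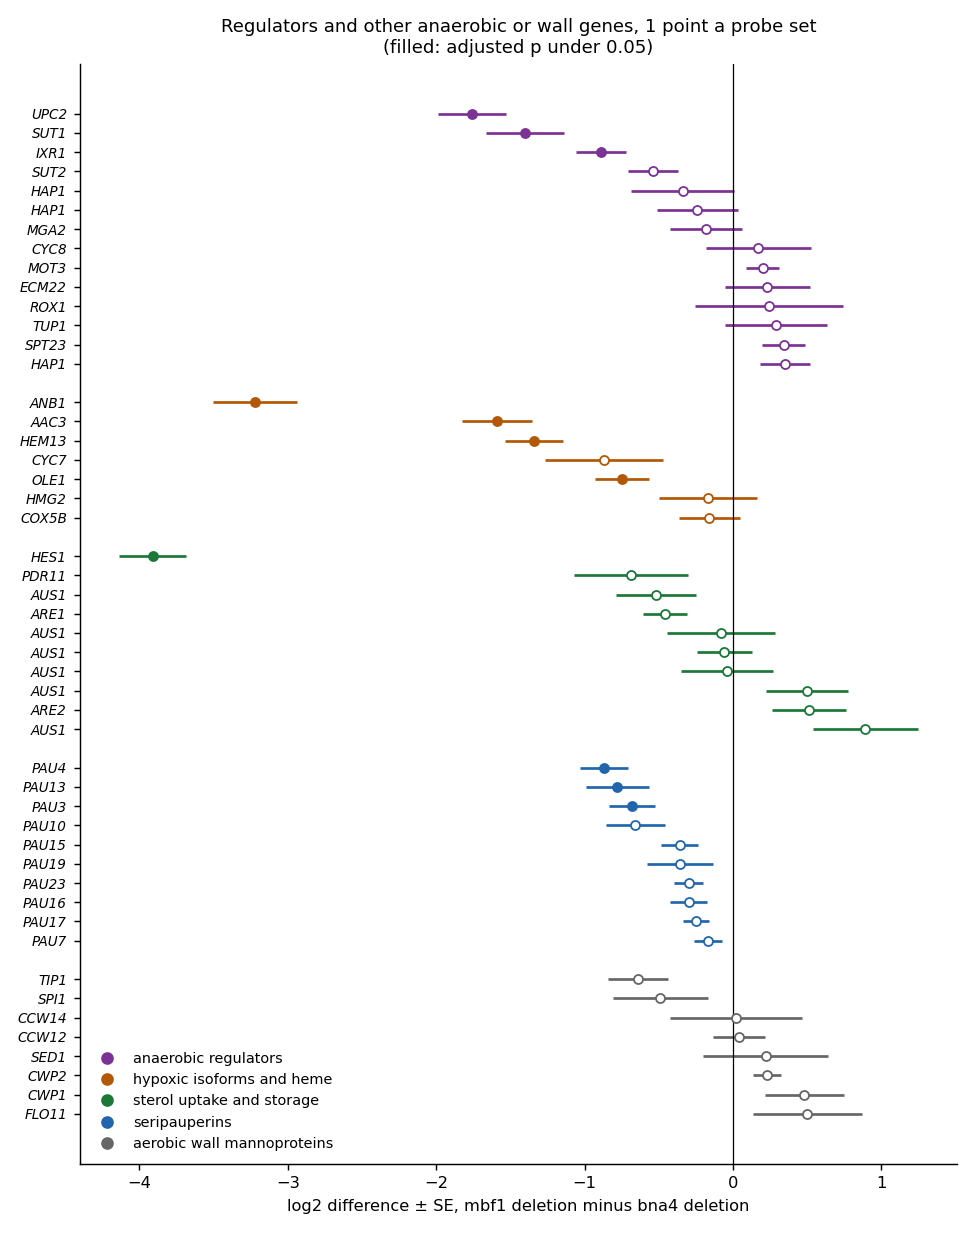
Log2 difference with standard error, mbf1 deletion minus bna4 deletion, for each probe set of the regulators, hypoxic isoforms and heme or lipid enzymes, sterol uptake and storage genes, seripauperins and aerobic wall mannoproteins (filled: adjusted p under 0.05). All filled points lie below 0, with HES1 (−3.91), ANB1 (−3.22) and UPC2 (−1.76) among the lowest.

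In the comparisons on the other arrays, few genes of these lists were called. Of all probe sets, 2.38% were lower and 2.06% higher in Htt103Q against Htt25Q. In the ume1 deletion against Htt103Q, 1% were lower and 1.6% higher. In Htt103Q against Htt25Q, AAC3 was lower by 1.08 (limma, adjusted p = 0.03), a call lost in 7 of 14 alternatives, among them leaving out Htt25Q array 1 or any 1 Htt103Q array (adjusted p up to 0.255 over the alternatives). SPI1, a wall protein of stressed cells, was higher by 1.34 (adjusted p = 0.0415), a call lost in 6 of 14, among them leaving out any 1 Htt103Q array (adjusted p up to 0.414 over the alternatives). In the ume1 deletion against Htt103Q, ANB1 had 6.09, 5.95 and 6.05 in the ume1 deletion, against 4.33, 3.98 and 4.06 in Htt103Q, and was higher by 1.91 (adjusted p = 0.00526, and up to 0.0558 over the alternatives). AAC3 was higher by 1.14 (adjusted p = 0.0314), a call lost without any 1 array of either group (adjusted p up to 0.103). ARE2, a sterol acyltransferase, was higher by 1.19 (adjusted p = 0.034), a call kept in 6 of 14 alternatives and lost without any 1 of these arrays but ume1 array 2 (adjusted p up to 0.195 over the alternatives). None of the DAN and TIR genes was called there. Both comparisons use the Htt103Q arrays, so the 2 values of AAC3 are not independent.

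The chromosomal neighbours of the 6 genes, up to 2 genes to each side in the R64 order, were 14 genes with 22 probe sets. In the mbf1 deletion 3 of these probe sets were lower than in the bna4 deletion and 0 higher. Of all probe sets, 4.81% were lower and 5.74% higher. The 3 belonged to BAT2, a branched-chain aminotransferase, which had −1.24 (limma, adjusted p = 0.00401), and to DAL5, the allantoate transporter, with −2.02 (adjusted p = 0.00127) and −0.49 (adjusted p = 0.0164) in 2 of its 3 probe sets. The gene between DAN4 and DAL5, YJR151W-A, was at the floor in both deletions. Next to TIR1, TIR2, TIR3 and TIR4 no neighbour outside the family was called.

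The members' likeness to each other was measured over the 15 arrays after centring each processing set on its mean, as a description. Against the mean of the other 5 genes, Pearson's r was 0.988 for TIR3, 0.987 for DAN1 and for TIR1, 0.919 for TIR4, 0.829 for TIR2 and −0.499 for DAN4. Among 3615 other probe sets with 1 symbol and a centred span of at least 1, those most like the mean of the 6 were VAR1, a mitochondrially encoded ribosomal protein (r = 0.982), HES1 (0.974), ATF2, an alcohol acetyltransferase (0.973), MBF1 (0.970) and HXT3, a hexose transporter (0.958). All these arrays share 2 processing sets and 1 split, the bna4 deletion from the mbf1 deletion, and MBF1 was removed by design in the second of these groups, so r measures little beyond that split.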

How the data were processed

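RNA of 15 samples was measured on 1-colour arrays. The authors deposited log2 values, 1 per probe set and array. The sources used here do not give how they were summarised, nor with which software. Of 9335 probe sets, 60 controls were left out; 6504 of the rest had 1 symbol, 328 several and 2443 none in the platform annotation. Because array medians differed by over 0.1, the deposited values were quantile normalized, which makes each difference relative to the rest of its array. limma (version 3.58.1, R 4.3.3) fitted 5 group means to 15 arrays, with empirical Bayes moderation, two-sided tests and Benjamini-Hochberg adjustment over 9275 probe sets. Calls had an adjusted p under 0.05. The number of arrays limits precision, and arrays give no read depth. The procedure was also run on simulated data. Those had independent normal errors, so they do not test it under deviations shared between arrays. The reported fit did not pair arrays by replicate number. Residual correlations of same-numbered arrays were −0.169 to 0.434. For ume1 against Htt103Q they were 0.34, −0.169 and 0.434, so some same-numbered arrays deviated together.

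The genes, lists and tests were chosen with earlier results of these data known. Named genes were all 6 members, every regulator, up to 4 genes of each other list by size of the mbf1 minus bna4 difference, up to 4 called elsewhere, and the 5 probe sets most like the members. OLE1, HMG2, COX5B, CWP2, SED1, CCW12, CCW14 and the chromosomal neighbours were named after their values were seen. Alternatives were deposited or centred values, fewer arrays, no dim probe sets, an intensity trend, a replicate block and leaving out arrays.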

Additional observations from a re-analysis of the deposited data

How the results depend on the processing

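The median difference of the 6 DAN and TIR genes between the mbf1 and bna4 deletions was −2.98 in the reported fit. It was −2.70 with deposited values, over all arrays or over the processing set alone, −2.72 with centred values and −2.74 with only the arrays of the groups compared, and leaving out 1 array gave −3.07 to −2.87. Deposited values moved the median to 3.32 for the bna4 deletion against Htt103Q (2.92 as reported) and to 0.61 for the mbf1 deletion against Htt103Q (0.08). The count called in Htt103Q against Htt25Q was 0 in place of 1 with only the arrays of the groups compared and with only the deposited values of the processing set, both of which use fewer arrays. It stayed at 0 in the ume1 deletion against Htt103Q under all 14 alternatives. With the replicate number as a block, 1 and 0 genes were called and the medians were −2.98, 2.92 and 0.08, so the block changed no call of the 6. For the comparisons across processing sets, the set-wide fit of deposited values is the deposited fit over all arrays and was not run again. Leaving out both arrays that stood apart was chosen after seeing the data. Of the single-gene differences, 360 stayed within the spread between replicates or on their side of the threshold, 28 moved further, and 2, both of TIR4, lost their call. Signs of differences that were not tested or not called changed in 0 alternatives for mbf1 against bna4, 1 for bna4 against Htt103Q, 4 for mbf1 against Htt103Q (TIR3, at −0.52 as reported, had 0.14 with deposited values), 5 for Htt103Q against Htt25Q and 2 for ume1 against Htt103Q. A member at the floor has no measured difference there, which limits DAN1 outside the bna4 deletion.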
